A study of Mus musculus with 10 samples.

Results

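The genome inside mouse mitochondria carries 37 genes: 13 mRNAs, 2 rRNAs and 22 tRNAs. All 37 were taken from the 54532 genes of the deposited count table, as those placed on the mitochondrial chromosome, MT, whose names start with mt-, and the 3 classes are described separately by the biotype the table gives. RNA was sequenced in bulk from the kidneys of 10 male wild-type (WT) C57BL/6 mice, 5 per group, to ask how gene expression differs when an obstructed kidney is given dimethyl malonate (DMM). Every mouse, controls included, had its left ureter tied at 8 weeks of age (unilateral ureteral obstruction, UUO) and was killed 14 days later, so that both groups share the injury and no kidney without obstruction is compared here. The DMM group received 40 mg/kg DMM into the peritoneum every other day after the ligation, and the control group received phosphate-buffered saline (PBS). Whole kidney tissue was sequenced, and RNA from all its cell types is pooled in each library.

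Mitochondria copy both strands of their small circular genome into long precursor RNAs, from which enzymes release the mRNAs and rRNAs by cutting at the tRNAs that lie between them. The mRNAs encode subunits of respiratory complexes I, III and IV and of ATP synthase, which are assembled with many subunits encoded in the nucleus, while the rRNAs and tRNAs serve the ribosomes that translate those mRNAs. DMM releases malonate, a competitive inhibitor of succinate dehydrogenase (complex II), the respiratory complex with no subunit encoded in mitochondria; proximal tubule cells, the most abundant cells of a healthy kidney cortex, are rich in mitochondria.

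Total counts per library ran from 16457495 to 18078777 in PBS (median 17825223) and from 15722527 to 19475833 in DMM (median 16794390). Levels are given as counts per 1000000 counts of the library (CPM) after scaling by the trimmed mean of M values (TMM), and tests are edgeR's quasi-likelihood test over all genes that passed its filter on low counts, with Benjamini-Hochberg adjustment over all of them. A gene is called when its adjusted p is under 0.05 and its fold change is above 1.5. 3 libraries stand apart. DMM replicate 4 had far more RNA of several mitochondrial genes than any other library and a TMM factor of 0.852, against 0.981 to 1.05 in the other 9. In all 12 tested mitochondrial mRNAs PBS replicate 3 was the highest PBS library, below DMM replicates 2 to 5 in 9 of them, and DMM replicate 1 lay within the PBS range. These last 2 libraries have weight 0 in the group means that the authors deposited, for a reason not given in the sources used here, although the methods state 5 replicates. Each test is therefore given over the 10 libraries and over the 8 that enter those means, n = 4 per group. The 8 are part of the 10, and leaving out these 2 libraries takes away the libraries by which the groups overlap in these mRNAs, so that the smaller set is no independent check. Fold changes of mitochondrial genes that move by more than 1.5 times without DMM replicate 4 are given without it as well.

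Mitochondrial mRNAs took a larger share of the reads in most DMM kidneys. Of each library's counts they held 2.07, 2.25, 3.58, 1.90 and 1.94% in PBS replicates 1 to 5 and 2.24, 3.71, 3.96, 5.20 and 4.30% in DMM replicates 1 to 5. 4 of the 5 DMM libraries were above every PBS library, DMM replicate 4 was the highest, DMM replicate 1 lay within the PBS range, and PBS replicate 3 was the only PBS library above DMM replicate 1 by a wide margin. The mean share was 2.35% ± 0.699 in PBS and 3.88% ± 1.08 in DMM (SD, n = 5 each), a difference of 1.53 percentage points. Without DMM replicate 4 the DMM mean was 3.55% ± 0.907 (n = 4). Over the 8 libraries the means were 2.04% ± 0.158 and 4.29% ± 0.653 (n = 4 each), and the groups did not overlap. In bulk tissue, a change in the number of cells of a type and a change in RNA per cell cannot be told apart.

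The rRNAs held 0.0642, 0.0414, 0.0723, 0.0597 and 0.0542% in PBS replicates 1 to 5 and 0.0484, 0.0700, 0.0548, 0.392 and 0.0743% in DMM replicates 1 to 5. DMM replicate 4 alone was high, and the other 4 DMM libraries lay within the range of the PBS libraries or just above it. The mean rRNA share was 0.0584% ± 0.0116 in PBS and 0.128% ± 0.148 in DMM (SD, n = 5 each), and 0.0619% ± 0.0123 in DMM without replicate 4 (n = 4). The tRNAs held 0.00633, 0.00585, 0.0103, 0.00488 and 0.00613% in PBS replicates 1 to 5 and 0.00645, 0.0116, 0.0131, 0.0260 and 0.0123% in DMM replicates 1 to 5. Here the DMM libraries other than replicate 1 were above all PBS libraries, with PBS replicate 3 the nearest to them. The mean tRNA share was 0.00669% ± 0.00208 in PBS and 0.0139% ± 0.00725 in DMM (SD, n = 5 each), or 0.0109% ± 0.00300 in DMM without replicate 4. The 95% Wilson interval of a single library's share extended at most 0.00987 percentage points to either side for the mRNAs, 0.00278 for the rRNAs and 0.000726 for the tRNAs, and it covers counting error only. These shares were not tested.

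**Figure D1:**
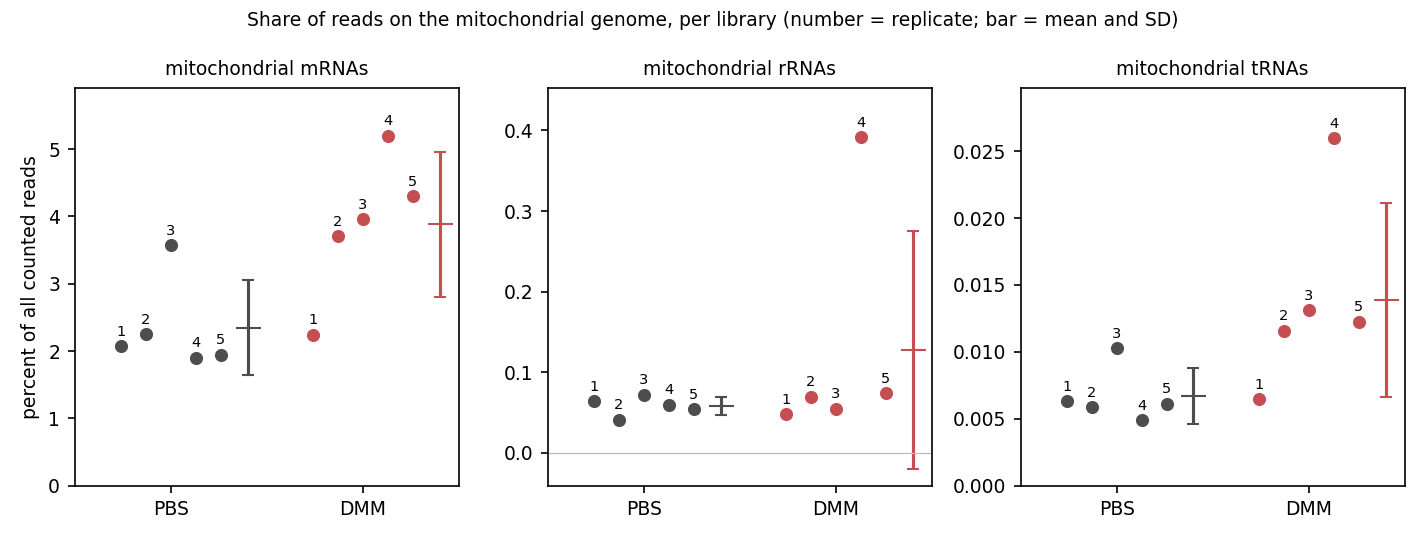
Percent of each library's counts on mitochondrial mRNAs, rRNAs and tRNAs in 5 PBS and 5 DMM kidneys, a point per library with the group mean and SD. The mRNA share of PBS replicate 3 lies just below those of DMM replicates 2 to 5 and that of DMM replicate 1 among those of PBS, and DMM replicate 4 is the highest in all 3 classes.

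12 of the 13 mRNAs passed the filter and were tested, among 16505 genes over the 10 libraries and 16550 over the 8; mt-Atp8 had too few counts for edgeR's filter. Over the 10 libraries edgeR called 0 of the 12 higher in DMM, against 0% of all genes tested, with adjusted p from 0.378 to 0.526. At an unadjusted p under 0.05 and a fold change above 1.5, 9 of the 12 were higher, against 1.91% of all genes tested, and 0 were lower, against 4.11%. DESeq2 called 1, mt-Nd4l, against 0.0389% of the genes it tested. Genes tested by DESeq2 are, here and below, all those it gave a fold change. They include genes without an adjusted p, which could not be called. All 12 had a log2 fold change above 0, from 0.58 for mt-Co1 to 1.37 for mt-Nd4l, with a median of 0.96 beside 0.02 over all genes tested. That sign was the same for all 12 under each scaling tried. Over the 8 libraries all 12 tested mRNAs rose, against 2.73% of all genes tested called higher and 3.56% called lower. Their median log2 fold change was 1.49, beside 0.02 over all genes, and in each of them every DMM library was above every PBS library, which held for 9.45% of all genes tested. Without DMM replicate 4 the median was 0.73 with the other 9 libraries and 1.19 with the other 7; with those 7 all 12 passed again, against 6.71% of all genes tested called higher. Leaving out another library changed the counts too: 3 of the 12 passed with the 9 libraries left without DMM replicate 1, against 0.298% of all genes, and 7 of the 12 with the 7 left when PBS replicate 1, 2 or 4 is taken from the 8, against 1.34, 1.17 and 0.952%. Corrected for GC content and length, the medians of the mRNAs were 0.78 and 1.14, and over the 8 the fold changes of mt-Nd3 and mt-Nd6 moved by over 1.5 times, that of mt-Nd6 to 1.22 on the log2 scale; over the 10 they had 0.77 and 0.85.

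**Figure D2:**
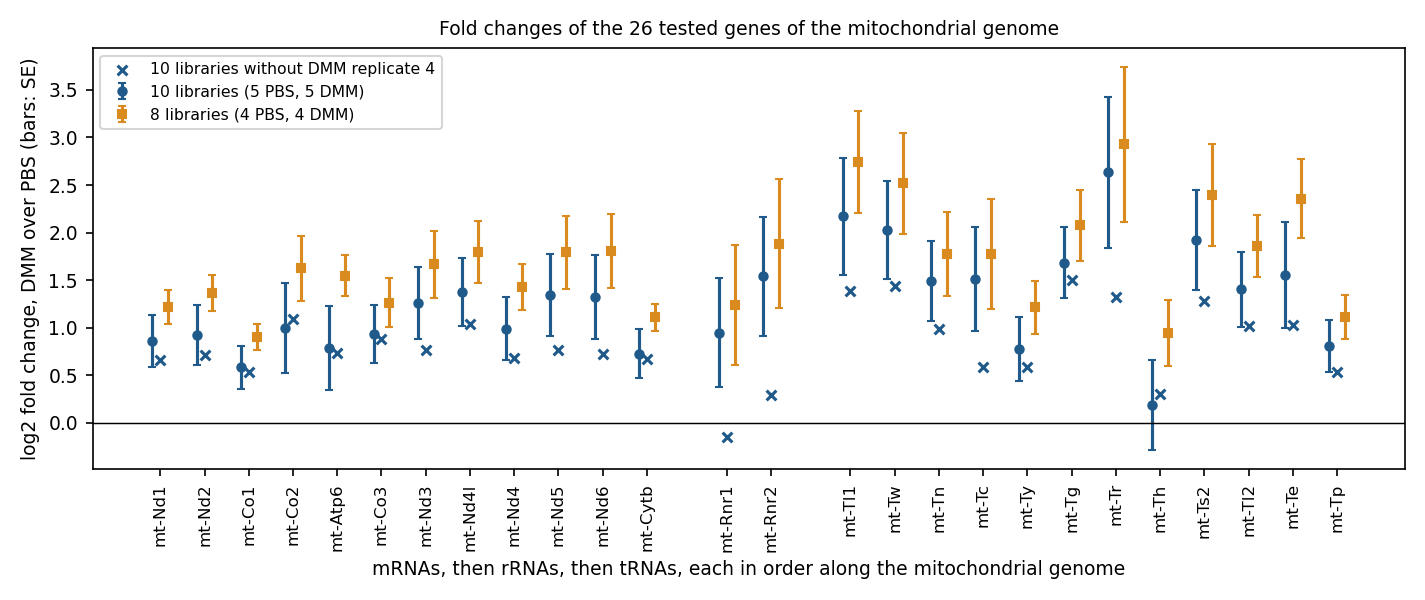
Log2 fold change, DMM over PBS, of the 26 mitochondrial genes that were tested, with bars of 1 SE, over the 10 libraries, over the 8 and with DMM replicate 4 left out. Of the mRNAs all 12 lie above 0 in each set, while mt-Rnr1 falls to -0.15 when DMM replicate 4 is left out of the 10.

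Positions are on the GRCm38 (mm10) mitochondrial chromosome, where 28 of the 37 genes lie on the plus strand and 9 on the minus strand. 7 of the mRNAs encode subunits of complex I, the NADH dehydrogenase that starts the respiratory chain, and these sit in its membrane arm, where protons are pumped. For mt-Nd1 (MT:2751-3707) the level was 2165, 2396, 3724, 2057 and 2135 CPM in PBS replicates 1 to 5 and 2305, 3997, 4645, 6837 and 4863 CPM in DMM replicates 1 to 5. The 4 highest values were all from DMM libraries, PBS replicate 3 was close below them, and DMM replicate 1 lay inside the PBS range. For mt-Nd1 the test gave a log2 fold change of 0.86 across all 10 libraries (SE 0.27, adjusted p = 0.385) and 1.22 (SE 0.18, adjusted p = 0.00699) over the 8. mt-Nd2 (MT:3914-4951), another membrane-arm subunit, had means of 1552 ± 593 CPM in PBS and 2946 ± 1129 CPM in DMM (SD, n = 5 each) and the same order of libraries at the overlap. Between the groups, mt-Nd2 had a log2 fold change of 0.93 across all 10 libraries (SE 0.31, adjusted p = 0.385) and 1.37 (SE 0.19, adjusted p = 0.00519) over the 8. mt-Nd4 (MT:10167-11544), one of the large subunits related to bacterial proton antiporters, had means of 1821 ± 671 CPM in PBS and 3620.0 ± 1723 CPM in DMM (SD, n = 5 each). mt-Nd4 differed by a log2 fold change of 0.99 across all 10 libraries (SE 0.33, adjusted p = 0.385) and 1.43 (SE 0.24, adjusted p = 0.0109) over the 8. Leaving out DMM replicate 4 gave 0.68 and 1.12.

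mt-Nd5 (MT:11742-13565), the antiporter-like subunit at the far end of that arm, stood at 2391, 2454, 4467, 2069 and 2277 CPM in PBS replicates 1 to 5 and 2766, 4690.3, 5281, 16017 and 5854 CPM in DMM replicates 1 to 5. DMM replicate 4 had more than any other library by a wide gap, while the other DMM libraries except replicate 1 were moderately above all PBS libraries. The log2 fold change of mt-Nd5 was 1.34 across all 10 libraries (SE 0.43, adjusted p = 0.385) and 1.79 (SE 0.39, adjusted p = 0.0272) over the 8, and 0.77 and 1.20 without DMM replicate 4. mt-Nd6 (MT:13552-14070) is the only mitochondrial mRNA on the minus strand; its level was 498, 454, 969, 449 and 480.4 CPM in PBS replicates 1 to 5 and 542, 935, 1063, 3349.9 and 1232 CPM in DMM replicates 1 to 5. DMM replicate 4 was again far above the rest. PBS replicate 3 lay just above DMM replicate 2 here, while in mt-Nd5 it was below it. For mt-Nd6 the test gave a log2 fold change of 1.32 across all 10 libraries (SE 0.44, adjusted p = 0.385) and 1.80 (SE 0.39, adjusted p = 0.0277) over the 8. Without DMM replicate 4 the values were 0.73 and 1.19. The number of mt-Nd6 counts per 100 mt-Nd5 counts was 20.8, 18.5, 21.7, 21.7 and 21.1 in PBS replicates 1 to 5 and 19.6, 19.9, 20.1, 20.9 and 21.1 in DMM replicates 1 to 5. The ratio of these neighbours on opposite strands thus differed little between libraries, DMM replicate 4 included, and the groups overlapped. The genes share 14 bases at their ends, and whether the libraries kept the strand of the RNA is not given in the sources used here, so reads of one may be counted for the other.

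mt-Nd3 (MT:9459-9806) and mt-Nd4l (MT:9877-10173), both short membrane subunits, had far lower levels. mt-Nd4l was measured at 4.87, 5.41, 10.1, 3.03 and 6.06 CPM in PBS replicates 1 to 5 and 8.83, 13.5, 13.9, 27.8 and 12.2 CPM in DMM replicates 1 to 5. The 4 highest values were from DMM replicates 2 to 5, and PBS replicate 3 exceeded DMM replicate 1. Between the groups, mt-Nd4l had a log2 fold change of 1.37 across all 10 libraries (SE 0.36, adjusted p = 0.378) and 1.80 (SE 0.32, adjusted p = 0.0136) over the 8; DESeq2 gave an adjusted p of 0.0444 over the 10. For mt-Nd3 the means were 16.4 ± 5.92 CPM in PBS and 39.2 ± 25.6 CPM in DMM (SD, n = 5 each), with 84.1 CPM in DMM replicate 4. mt-Nd3 differed by a log2 fold change of 1.26 across all 10 libraries (SE 0.38, adjusted p = 0.378) and 1.67 (SE 0.35, adjusted p = 0.0257) over the 8, and 0.77 and 1.15 without that library. Nearly all of the sequence of these short genes is also present in the nucleus, as described below, so their counts are uncertain.

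Complex III passes electrons from ubiquinol to cytochrome c, and the mitochondrial genome encodes 1 of its subunits, cytochrome b. mt-Cytb (MT:14145-15288) reached 3103, 3664, 5997, 2889.9 and 2874 CPM in PBS replicates 1 to 5 and 3599.7, 6094, 6597, 6979 and 7381 CPM in DMM replicates 1 to 5. DMM replicates 2 to 5 were above all PBS libraries and close to each other, with DMM replicate 4 inside the range of the others; PBS replicate 3 lay just under them. The log2 fold change of mt-Cytb was 0.73 across all 10 libraries (SE 0.26, adjusted p = 0.387) and 1.11 (SE 0.14, adjusted p = 0.00319) over the 8. Without DMM replicate 4 it was 0.68 and 1.09.

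Complex IV, cytochrome c oxidase, reduces oxygen to water, and its 3 catalytic-core subunits are the mitochondrial ones. mt-Co1 (MT:5328-6872), which holds the site of oxygen reduction, had 8688, 9537, 14724, 8152 and 8203 CPM in PBS replicates 1 to 5 and 9396, 14733, 15817, 16589 and 17324 CPM in DMM replicates 1 to 5. PBS replicate 3 was level with DMM replicate 2, and the other PBS libraries and DMM replicate 1 formed a lower set with little spread. For mt-Co1 the test gave a log2 fold change of 0.58 across all 10 libraries (SE 0.23, adjusted p = 0.408) and 0.90 (SE 0.14, adjusted p = 0.00757) over the 8. This was the smallest fold change of the 12 mRNAs in both sets, and it hardly depended on DMM replicate 4, giving 0.54 and 0.88 without it. mt-Co2 (MT:7013-7696), which takes electrons from cytochrome c, was measured at 39.8, 45.7, 128, 37.2 and 74.5 CPM in PBS replicates 1 to 5 and 39.5, 100.4, 173, 94.3 and 240.2 CPM in DMM replicates 1 to 5. Its spread within each group was wide, and here DMM replicates 3 and 5, not replicate 4, were highest. Between the groups, mt-Co2 had a log2 fold change of 0.99 across all 10 libraries (SE 0.47, adjusted p = 0.480) and 1.62 (SE 0.35, adjusted p = 0.0261) over the 8. For mt-Co3 (MT:8607-9390), the core subunit without a redox center, the means were 55.5 ± 19.5 CPM in PBS and 106 ± 38.5 CPM in DMM (SD, n = 5 each). mt-Co3 differed by a log2 fold change of 0.93 across all 10 libraries (SE 0.31, adjusted p = 0.385) and 1.26 (SE 0.26, adjusted p = 0.0227) over the 8.

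ATP synthase uses the proton gradient to make ATP, and mt-Atp6 and mt-Atp8 encode parts of its membrane portion. mt-Atp6 (MT:7927-8607), part of the proton channel, stood at 31.1, 45.6, 130.4, 34.0 and 43.5 CPM in PBS replicates 1 to 5 and 39.3, 79.2, 154, 111 and 106 CPM in DMM replicates 1 to 5. PBS replicate 3 was the second highest of all libraries, and the other PBS libraries and DMM replicate 1 were low. The log2 fold change of mt-Atp6 was 0.78 across all 10 libraries (SE 0.44, adjusted p = 0.526) and 1.55 (SE 0.22, adjusted p = 0.00519) over the 8. It had the largest unadjusted p of the 12 mRNAs over the 10 libraries, 0.103. mt-Atp8 (MT:7766-7969) had 1, 3, 6, 1 and 5 counts in PBS replicates 1 to 5 and 4, 3, 10, 9 and 18 in DMM replicates 1 to 5. edgeR's filter left it out. DESeq2 tested it and gave a log2 fold change of 1.55 with all libraries (unadjusted p = 0.0331, no adjusted p) and 2.08 with the 8 (adjusted p = 0.115). edgeR with no filter gave an adjusted p of 0.578 and 0.257. The reading frames of mt-Atp8 and mt-Atp6 overlap by 43 bases on the same strand, and the counting tool's treatment of reads in an overlap is not given in the sources used here. The shared stretch, MT:7927-7969 on the plus strand, is shown because both genes claim it; capitals mark the start codon of mt-Atp6 at its first bases and the stop codon of mt-Atp8 at its last.
overlap of mt-Atp8 and mt-Atp6: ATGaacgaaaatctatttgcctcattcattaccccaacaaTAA

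Levels between mRNAs are compared per length, as CPM per kilobase (kb) of gene. On this scale mt-Co1 was the most abundant, with 6382 ± 1796 in PBS and 9561 ± 2042 in DMM (SD, n = 5 each). mt-Cytb followed with 3239 ± 1154 in PBS, then mt-Nd1 with 2607 ± 729.6. mt-Nd5 had 1498 ± 538, mt-Nd2 1495 ± 571, mt-Nd4 1322 ± 487 and mt-Nd6 1099 ± 431 CPM per kb in PBS. These SDs hold variation between libraries that the 4 genes share. Within every PBS library mt-Nd5 and mt-Nd2 were above mt-Nd4, and mt-Nd4 was above mt-Nd6. The order of mt-Nd5 and mt-Nd2 changed between PBS libraries. Of all mitochondrial mRNA counts, mt-Co1 took 43.8, 43.7, 41.1, 44.6 and 43.4% in PBS replicates 1 to 5 and 43.0, 40.1, 39.6, 27.1 and 39.4% in DMM replicates 1 to 5. mt-Nd5 took 12.1, 11.2, 12.5, 11.3 and 12.1% in PBS replicates 1 to 5 and 12.7, 12.8, 13.2, 26.2 and 13.3% in DMM replicates 1 to 5. DMM replicate 4 thus held a mixture of mitochondrial mRNAs that no other library had, with much less of its counts on mt-Co1 and much more on mt-Nd5. The number of mt-Cytb counts per 100 mt-Co1 counts was 35.7, 38.4, 40.7, 35.5 and 35.0 in PBS replicates 1 to 5 and 38.3, 41.4, 41.7, 42.1 and 42.6 in DMM replicates 1 to 5, and here DMM replicate 4 lay among the other DMM libraries while the groups overlapped through DMM replicate 1, which was below PBS replicates 2 and 3.

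The rRNAs form the small and large subunits of the mitochondrial ribosome. mt-Rnr1 (MT:70-1024), the 12S rRNA, was measured at 287, 156, 295, 230.1 and 231 CPM in PBS replicates 1 to 5 and 172, 246, 181, 1447 and 266 CPM in DMM replicates 1 to 5. Only DMM replicate 4 stood out, and the other 4 DMM libraries lay within the PBS range. For mt-Rnr1 the test gave a log2 fold change of 0.95 across all 10 libraries (SE 0.57, adjusted p = 0.538) and 1.24 (SE 0.63, adjusted p = 0.302) over the 8. Without DMM replicate 4 the direction over the 10 libraries turned, to -0.15, and over the 8 the value became 0.03. mt-Rnr2 (MT:1094-2675), the 16S rRNA, had 327, 246, 429.9, 344 and 295 CPM in PBS replicates 1 to 5 and 299, 448, 372, 3159 and 492 CPM in DMM replicates 1 to 5. DMM replicate 4 was again far above all others; DMM replicates 2 and 5 were slightly above the highest PBS library, replicate 3. Between the groups, mt-Rnr2 had a log2 fold change of 1.54 across all 10 libraries (SE 0.62, adjusted p = 0.420) and 1.88 (SE 0.68, adjusted p = 0.144) over the 8, and 0.30 and 0.53 without DMM replicate 4. edgeR called 0 of the 2 rRNAs in either set; at an unadjusted p under 0.05 and a fold change above 1.5 mt-Rnr2 was higher in both, and DESeq2, which called 0, gave neither rRNA an adjusted p. Corrected for GC content and length, mt-Rnr1 had 0.25 and 0.46 and mt-Rnr2 0.78 and 1.06 in the 2 sets.

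The balance of the 2 rRNAs, in mt-Rnr1 counts per 100 mt-Rnr2 counts, was 87.6, 63.4, 68.6, 67.0 and 78.2 in PBS replicates 1 to 5 and 57.5, 55.0, 48.7, 45.8 and 54.1 in DMM replicates 1 to 5. Every DMM library, replicates 1 and 4 included, was below every PBS library, PBS replicate 3 included. The means were 73.0 ± 9.87 in PBS and 52.2 ± 4.83 in DMM (SD, n = 5 each). This is 1 of 6 ratios computed between or within the classes and was picked out after its values were seen, so no test is given. For single genes every PBS library was above every DMM library in 1.16% of those tested, a share that does not apply to a ratio picked in this way. The number of rRNA counts per 100 mRNA counts was 3.10, 1.84, 2.02, 3.14 and 2.79 in PBS replicates 1 to 5 and 2.16, 1.89, 1.38, 7.53 and 1.73 in DMM replicates 1 to 5. By this ratio DMM replicate 4 was the highest of all libraries, while DMM replicate 3 was the lowest and the other DMM libraries lay in or near the lower part of the PBS range.

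Each tRNA carries 1 amino acid to the mitochondrial ribosome, and the letter after mt-T names it. The libraries were made with an mRNA kit from total RNA, and whether the tRNA counts come from mature tRNAs or from precursors that contain them was not tested. 12 of the 22 tRNAs passed the filter of edgeR and were tested by it, and DESeq2, which filters otherwise, gave 19 a fold change. Over the 10 libraries DESeq2 gave no adjusted p to any tRNA that edgeR left out. Over the 8 it gave one only to mt-Tq and mt-Ti among them, and those without an adjusted p could not be called. The 10 that edgeR left out had at most 16 counts in any library; of these mt-Tq, mt-Ti and mt-Tm had most, and mt-Tf, mt-Td and mt-Tk had 0 in all 10 libraries, which allows up to 3 counts in each. Over the 10 libraries edgeR called 0 of the 12, against 0% of all genes tested, while 11 were higher at an unadjusted p under 0.05 and a fold change above 1.5, against 1.91%. DESeq2 called 2 of its 19, mt-Tg and mt-Tw, against 0.0389% of all genes it tested. The median log2 fold change of the 12 was 1.53, beside 0.02 over all genes. Over the 8 libraries 9 of the 12 rose, all but mt-Tc, mt-Tr and mt-Th, against 2.73% of all genes tested, with a median of 1.97. DESeq2 called 11 of its 19, against 2.48%. Without DMM replicate 4 the medians were 1.02 and 1.55, and with the other 7 libraries all 12 passed, against 6.71% of all genes tested. Without DMM replicate 1, 4 passed with the other 9 libraries, against 0.298%. Taken from the 8, PBS replicate 1 left 4 (1.34% of all genes), PBS replicate 2 left 3 (1.17%), PBS replicate 4 left 3 (0.952%) and PBS replicate 5 left 1 (0.774%).

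mt-Tp (MT:15356-15422, minus strand), the proline tRNA, had the most counts: 29.4, 32.4, 46.8, 28.2 and 31.9 CPM in PBS replicates 1 to 5 and 31.2, 47.5, 67.0, 99.8 and 49.7 CPM in DMM replicates 1 to 5. DMM replicates 2 to 5 were above all PBS libraries, with PBS replicate 3 just under DMM replicate 2 and DMM replicate 1 among the rest of PBS. mt-Tp differed by a log2 fold change of 0.81 across all 10 libraries (SE 0.28, adjusted p = 0.387) and 1.11 (SE 0.23, adjusted p = 0.0233) over the 8. mt-Te (MT:14071-14139, minus strand), the glutamate tRNA next to mt-Nd6, had 8.63, 8.48, 24.0, 3.99 and 6.82 CPM in PBS replicates 1 to 5 and 9.44, 27.2, 20.9, 68.0 and 27.1 CPM in DMM replicates 1 to 5. PBS replicate 3 lay above DMM replicates 1 and 3, and DMM replicate 4 was the highest. The log2 fold change of mt-Te was 1.55 across all 10 libraries (SE 0.55, adjusted p = 0.387) and 2.36 (SE 0.41, adjusted p = 0.0122) over the 8. mt-Tc (MT:5192-5257, minus strand), the cysteine tRNA, stood at 8.58, 5.53, 7.08, 4.42 and 6.59 CPM in PBS replicates 1 to 5 and 5.86, 8.89, 10.1, 53.3 and 13.7 CPM in DMM replicates 1 to 5. DMM replicate 4 was far above all others, and the groups overlapped through DMM replicate 1. For mt-Tc the test gave a log2 fold change of 1.51 across all 10 libraries (SE 0.55, adjusted p = 0.388) and 1.77 (SE 0.58, adjusted p = 0.109) over the 8; without DMM replicate 4 it was 0.58 and 0.80.

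3 tRNAs, mt-Tw, mt-Tn and mt-Tg, had every DMM library above every PBS library over all 10, against 0.794% of all genes tested. In DMM replicate 1 and PBS replicate 3 the raw counts were 18 and 19 for mt-Tw, 38 and 40 for mt-Tn and 21 and 20 for mt-Tg. All 3 separations thus rest on few counts, and those of mt-Tw and mt-Tn appear only after scaling. The glycine tRNA mt-Tg (MT:9391-9458) was measured at 0.583, 0.294, 1.12, 0.851 and 0.529 CPM in PBS replicates 1 to 5 and 1.30, 2.46, 2.32, 3.26 and 1.64 CPM in DMM replicates 1 to 5. Its counts ran from 5 to 54, DMM replicate 1 was just above PBS replicate 3, and DMM replicate 4 was the highest without standing far apart. Between the groups, mt-Tg had a log2 fold change of 1.68 across all 10 libraries (SE 0.38, adjusted p = 0.378) and 2.08 (SE 0.37, adjusted p = 0.0136) over the 8. mt-Tw (MT:4950-5016), the tryptophan tRNA, had 0.794, 0.294, 1.07, 0.372 and 0.471 CPM in PBS replicates 1 to 5 and 1.11, 2.02, 1.76, 5.80 and 1.70 CPM in DMM replicates 1 to 5. DMM replicate 1 exceeded PBS replicate 3 by little. mt-Tw differed by a log2 fold change of 2.03 across all 10 libraries (SE 0.52, adjusted p = 0.378) and 2.52 (SE 0.53, adjusted p = 0.0252) over the 8, and 1.44 and 1.89 without DMM replicate 4. mt-Tn (MT:5089-5159, minus strand), the asparagine tRNA, had means of 1.75 ± 0.550 CPM in PBS and 4.94 ± 3.37 CPM in DMM (SD, n = 5 each). The log2 fold change of mt-Tn was 1.49 across all 10 libraries (SE 0.42, adjusted p = 0.378) and 1.78 (SE 0.45, adjusted p = 0.0470) over the 8.

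The leucine tRNA mt-Tl1 (MT:2676-2750) lies directly between mt-Rnr2 and mt-Nd1 with 0 bases to either. It had 0.794, 0.589, 1.52, 0.692 and 0.647 CPM in PBS replicates 1 to 5 and 0.741, 2.02, 2.89, 10.3 and 3.28 CPM in DMM replicates 1 to 5. DMM replicate 4 was highest, PBS replicate 3 was above DMM replicate 1, and the other PBS libraries were close together. For mt-Tl1 the test gave a log2 fold change of 2.17 across all 10 libraries (SE 0.61, adjusted p = 0.378) and 2.74 (SE 0.54, adjusted p = 0.0192) over the 8, and 1.39 and 1.99 without DMM replicate 4. mt-Tr (MT:9808-9875), the arginine tRNA, had the largest log2 fold change of the 12 with DMM replicate 4, no replicate block and no correction for GC content and length. It was 2.63 over the 10 libraries and 2.93 (SE 0.81, adjusted p = 0.0656) over the 8. DMM replicate 4 had 10.3 CPM of mt-Tr, and the other libraries at most 1.87 CPM. Without DMM replicate 4 mt-Tr was at 1.32 and 1.62, below mt-Tg, mt-Tw and mt-Tl1 in both sets. With a block on the replicate number mt-Tr had 1.81 and 2.57, below mt-Tw with 1.88 and 2.86. mt-Th (MT:11546-11612), the histidine tRNA, had the smallest, 0.19 and 0.95 (SE 0.35, adjusted p = 0.150), though mt-Tc had the smallest when DMM replicate 4 is taken from the 8, and PBS replicate 3 had its highest level. The log2 fold changes of the others over the 10 and over the 8 libraries were 0.78 and 1.22 for mt-Ty (tyrosine), 1.40 and 1.86 for mt-Tl2 (the other leucine tRNA) and 1.92 and 2.39 for mt-Ts2 (serine), and these 3 rose over the 8. For mt-Ts2 the values without DMM replicate 4 were 1.28 and 1.72. Corrected for GC content and length, the fold changes of the tRNAs were smaller, with medians of 0.58 over the 10 and 0.66 over the 8. Over the 10, mt-Tr then had 0.56, mt-Tc 0.43, mt-Tl2 0.48, mt-Ts2 0.80, mt-Tg 0.77, mt-Tn 0.61, mt-Te 0.86, mt-Tw 1.26 and mt-Ty 0.08. mt-Th turned to -0.48, and mt-Tl1, with 1.30, had the largest in place of mt-Tr. The corrected values were tested with limma in place of edgeR, so that the test differs as well. Over the 8 it called 4 tRNAs, mt-Tl1 (1.84), mt-Tw (1.52), mt-Te (1.34) and mt-Tl2 (0.66). mt-Tg (0.83), mt-Ts2 (0.95), mt-Tn (0.67), mt-Ty (0.23) and mt-Tp (0.61) were no longer called. mt-Tc, mt-Tr and mt-Th, not called before, had 0.55, 0.61 and -0.22. The 3 tRNAs with most counts, and mt-Tl1 between the rRNA and the mRNA, are shown because the counted reads overlap these sequences (GRCm38, GENCODE M21). Such a read may run into a neighbouring gene or, as the strandedness is not given, come from the opposite strand. The sequences run 5′ to 3′ as encoded on the tRNA's own strand, and capitals mark the anticodon.
mt-Tp: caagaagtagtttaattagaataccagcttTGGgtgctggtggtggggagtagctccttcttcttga
mt-Te: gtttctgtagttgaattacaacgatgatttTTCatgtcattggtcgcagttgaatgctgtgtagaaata
mt-Tc: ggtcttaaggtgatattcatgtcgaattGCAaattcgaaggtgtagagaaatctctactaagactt
mt-Tl1: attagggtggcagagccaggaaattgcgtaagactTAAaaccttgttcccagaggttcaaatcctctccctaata

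Stretches of mitochondrial DNA have been copied into nuclear chromosomes, and some of the copies are annotated as genes of their own. Each mRNA and rRNA was read in all its windows of 100 bases, and each window was looked up in the annotated nuclear transcripts of GENCODE M21 on either strand. Of mt-Co2, 582 of 585 windows were found in a nuclear transcript, of mt-Atp6 579 of 582, of mt-Co3 684 of 685, of mt-Nd3 243 of 249 and of mt-Nd4l 195 of 198. mt-Nd4 shared 777 of 1279, mt-Co1 446 of 1446 and mt-Nd2 30 of 939, and the count was 0 for mt-Nd1, mt-Nd5, mt-Nd6, mt-Cytb, mt-Atp8 and both rRNAs. The 5 mRNAs shared almost throughout had low counts, and so had mt-Atp8, with 0 shared windows. Only annotated transcripts were searched, and no gene is annotated at the place of mt-Atp8 in the nuclear stretch described below, so its 0 does not show that it has no nuclear copy. Per library the 5 nearly fully shared mRNAs had 10.2 to 351 CPM per kb; mt-Nd1, mt-Nd2, mt-Co1, mt-Nd4, mt-Nd5, mt-Nd6 and mt-Cytb had 866 to 11213. How reads that match both places were counted is not given in the sources used here, and the part of this in the low counts was not tested.

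**Figure D3:**
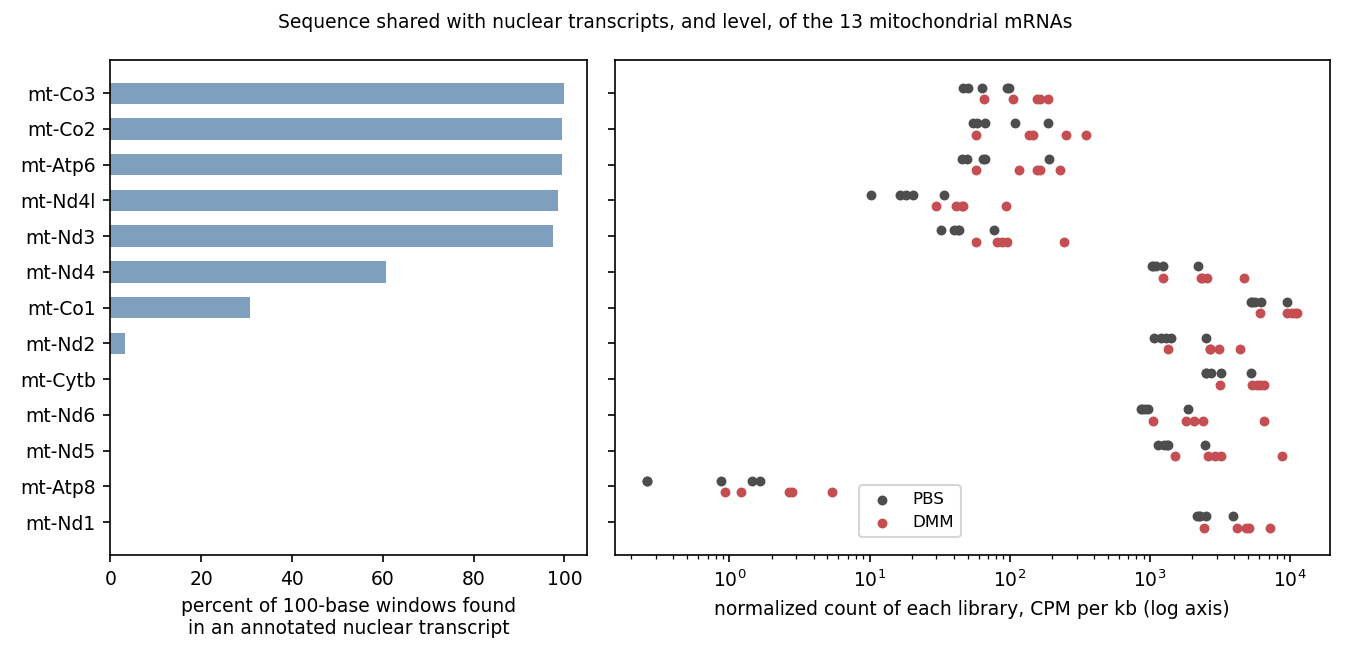
Left, percent of the 100-base windows of each of the 13 mitochondrial mRNAs that also occur in an annotated nuclear transcript; right, the level of each mRNA in every library, in CPM per kb on a log axis. The 5 mRNAs with nearly all windows shared lie at 351 CPM per kb or below, and mt-Atp8, with 0 windows found in the annotated transcripts searched, is the lowest.

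7 of the copies lie side by side on the minus strand of chromosome 1, from 24611535 to 24616197 (GRCm38), in the order of their mitochondrial counterparts from MT:6381 to MT:11042. Measured between the stretches that align, not between the annotated gene ends, the spacing is the same in both genomes in 5 of 6 gaps. The gap between the aligned stretches of mt-Co2 and mt-Atp6 has 233 bases in both; in mitochondria it holds mt-Tk and all of mt-Atp8 but the last 43 bases, while no gene is annotated in it on chromosome 1. Over the aligned bases Gm28661 is identical to mt-Co2 (681 bases), Gm10925 to mt-Atp6 (678), Gm28437 to mt-Co3 (783), Gm10222 to mt-Nd4l (294) and Gm28439 to mt-Nd4 (876). Gm28438 equals mt-Nd3 in 344 of 345 bases and differs by T3C, counted from 1 at the 5′ end of mt-Nd3. The first 91 bases of this pair, MT:9459-9549 on the plus strand and 1:24613029-24613119 on the minus strand, are shown to make plain how little could tell the reads apart; capitals mark the base that differs.
mt-Nd3: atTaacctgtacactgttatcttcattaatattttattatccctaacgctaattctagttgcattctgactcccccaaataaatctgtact
Gm28438: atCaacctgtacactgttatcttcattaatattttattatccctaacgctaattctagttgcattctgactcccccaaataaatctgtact

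The counts given to the copies varied over the libraries much as those of the mitochondrial mRNAs did. Summed over the 10 annotated copies they were 149.6, 164, 290.3, 153 and 153 CPM in PBS replicates 1 to 5 and 171, 334, 295, 415 and 324 CPM in DMM replicates 1 to 5, Gm10925 being the most abundant. DMM replicates 2 to 5 were high, PBS replicate 3 was just below them and DMM replicate 1 within the PBS range. 8 of the 10 copies were tested; edgeR called 0 over the 10 libraries, with 6 higher at an unadjusted p under 0.05 and a fold change above 1.5, against 1.91% of all genes tested. It called 7 over the 8, against 2.73%, and DESeq2 called 0 and 7, against 0.0389 and 2.48%. The median log2 fold changes from edgeR were 0.91 over the 10 and 1.27 over the 8. Gm28439, the copy of mt-Nd4, had a log2 fold change of 1.11 across all 10 libraries (SE 0.34, adjusted p = 0.378) and 1.55 over the 8 (SE 0.26, adjusted p = 0.0111). Gm10925, the copy of mt-Atp6, had a log2 fold change of 0.84 across all 10 libraries (SE 0.26, adjusted p = 0.385) and 1.21 over the 8 (SE 0.15, adjusted p = 0.00313). Which of these reads came from the nucleus was not tested.

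Nuclear genes supply the proteins that copy, cut, modify and degrade mitochondrial RNA. Over the 10 libraries edgeR and DESeq2 both called 0 genes of the lists of such genes and of nuclear respiratory subunits. 1 of their genes, Ppargc1a, was higher at an unadjusted p below 0.05 and a fold change above 1.5. Of all genes tested 1.91% were higher and 4.11% lower at that threshold. Of 11 genes of mitochondrial transcription 0 were called over the 8 libraries as well, with median log2 fold changes of 0.05 over the 10 and 0.11 over the 8; Tfb2m, the factor that opens the promoter for the mitochondrial RNA polymerase, had a log2 fold change of 0.22 across all 10 libraries (SE 0.11, adjusted p = 0.504) and 0.30 over the 8 (SE 0.12, adjusted p = 0.192). For 15 genes of mitochondrial DNA replication and nucleotide supply the medians were 0.00150 and -0.00479 with 0 called; Twnk, the replication helicase, had a log2 fold change of 0.27 across all 10 libraries (SE 0.11, adjusted p = 0.425) and 0.25 over the 8 (SE 0.13, adjusted p = 0.290). Of 21 genes of mitochondrial RNA processing and decay 1 rose and 1 fell over the 8 libraries, against 2.73 and 3.56% of all genes tested, and the medians were 0.06 and 0.10. The one that rose, Lrpprc, named after its values were seen, was at 0.75 on the log2 scale over the 8 and 0.54, under the 1.5-fold limit, without DMM replicate 4, where 6.71% of all genes were called higher. The one that fell was Pnpt1, the polynucleotide phosphorylase of the mitochondrial RNA-degrading complex, at 45.9, 39.5, 42.7, 51.6 and 50.9 CPM in PBS replicates 1 to 5 and 47.0, 29.1, 30.3, 34.2 and 29.1 CPM in DMM replicates 1 to 5. DMM replicates 2 to 5 were below all PBS libraries and DMM replicate 1 was within their range, giving Pnpt1 a log2 fold change of -0.44 across all 10 libraries (SE 0.15, adjusted p = 0.385) and -0.62 over the 8 (SE 0.12, adjusted p = 0.0208). The 13 genes of tRNA and rRNA modification had medians of 0.01 and 0.02 with 0 called by either tool. The list of 21 genes that load the tRNAs, most of them aminoacyl-tRNA synthetases, had 0.14 and 0.20 with 0 called by edgeR. Gatb, an amidotransferase subunit of this list named after its values were seen, was at 0.64 over the 8 (adjusted p = 0.0599). DESeq2 called Gatb there, against 2.48% of all genes it tested. When DMM replicate 4 is taken out Gatb was at 0.73 (adjusted p = 0.00535), where 6.71% of all genes were called higher. The genes of smallest p over the 10 in these 2 lists were Nsun3 (log2 fold changes 0.31 and 0.45 over the 10 and the 8) and Iars2 (0.23 and 0.33). 1 of 8 regulators of mitochondrial biogenesis rose over the 8 libraries, against 2.73% of all genes: Ppargc1a, a coactivator that induces mitochondrial genes, at 50.2, 36.3, 63.5, 30.6 and 41.0 CPM in PBS replicates 1 to 5 and 40.9, 58.1, 73.3, 135 and 70.5 CPM in DMM replicates 1 to 5. DMM replicate 4 was far the highest, PBS replicate 3 lay above DMM replicates 1 and 2, and Ppargc1a had a log2 fold change of 0.77 across all 10 libraries (SE 0.30, adjusted p = 0.409) and 1.09 over the 8 (SE 0.27, adjusted p = 0.0450).

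The nuclear partners of the mitochondrial subunits had smaller median log2 fold changes than the mitochondrial mRNAs, a difference that was not tested. Of 36 nuclear complex I subunits 1 rose over the 8 libraries, Ndufs1, where 2.73% of all genes tested did, and the medians were 0.09 over the 10 and 0.27 over the 8. Ndufs1, the largest iron-sulfur subunit, had a log2 fold change of 0.35 across all 10 libraries (SE 0.21, adjusted p = 0.536) and 0.66 over the 8 (SE 0.12, adjusted p = 0.0162). Ndufa9, the gene of smallest p in this list over the 10, had 0.29 and 0.47. Over the 8 libraries edgeR and DESeq2 called 0 of 9 complex III subunits (medians 0.20 and 0.39), 0 of 13 tested of 14 complex IV subunits (0.15 and 0.29) and 0 of 15 ATP synthase subunits (0.11 and 0.22), with 0 of each at an unadjusted p and that fold change. Their genes of smallest p were Uqcrh (0.28 and 0.47), Cox7a2 (0.22 and 0.45) and Atp5a1 (0.30 and 0.51). For the 4 subunits of complex II, the enzyme that malonate inhibits, the medians were 0.20 and 0.38 with 0 called by either tool and 0 at an unadjusted p and that fold change. Sdhb, the gene of smallest p over the 10, had 0.32 and 0.58 (adjusted p = 0.537 and 0.0331), over the 8 just under the 1.5-fold limit. The nuclear complex IV list summed to 1299.7, 1324, 1670.5, 1123 and 1209 CPM in PBS replicates 1 to 5 and 1211, 1673, 1901, 494 and 2051 CPM in DMM replicates 1 to 5. DMM replicate 4, the highest library for the mitochondrial mRNAs, was thus the lowest for this list. With the 7 libraries left when it is taken from the 8, the medians were 0.47 for complex I, 0.57 for complex II, 0.56 for complex III, 0.59 for complex IV and 0.47 for ATP synthase, with 5, 2, 4, 8 and 4 genes called higher, against 6.71% of all genes tested, beside 1.19 for the mitochondrial mRNAs. Of 15 genes of mitochondrial mass and import 1 rose over the 8 libraries, against 2.73% of all genes: Hspa9, the chaperone that pulls proteins into the matrix, with a log2 fold change of 0.42 across all 10 libraries (SE 0.16, adjusted p = 0.401) and 0.62 over the 8 (SE 0.12, adjusted p = 0.0162), and 0.54, under the 1.5-fold limit, when DMM replicate 4 is taken from the 8, where 6.71% of all genes were called higher. The medians of this list were 0.10 and 0.15.

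The proximal tubule markers were high in the libraries with a high mitochondrial mRNA share, DMM replicate 4 less so than the others. The 16 proximal tubule markers summed to 4526, 4568, 11563, 1743 and 3462 CPM in PBS replicates 1 to 5 and 3431, 9496, 8165, 6614 and 12133 CPM in DMM replicates 1 to 5, with Kap the most abundant. PBS replicate 3, the highest PBS library in the tested mitochondrial mRNAs, lay among DMM replicates 2 to 5 here, and DMM replicate 1 was within the PBS range. DMM replicate 4 was lower than DMM replicates 2, 3 and 5. edgeR and DESeq2 called 0 of the 16 over the 10 libraries. At an unadjusted p under 0.05 and a fold change above 1.5, 2 were higher, against 1.91% of all genes tested. Over the 8 edgeR called 7, against 2.73%, and 14 without DMM replicate 4, against 6.71%. DESeq2 called 13 over the 8, against 2.48%. The medians were 0.72 and 1.65. The loop of Henle list (4 genes, Umod highest) summed to 2835, 2388, 3812, 1813 and 1556 CPM in PBS replicates 1 to 5 and 2451, 3778, 4273, 1686 and 4732 CPM in DMM replicates 1 to 5. edgeR and DESeq2 called 0 over the 10, with 1 higher at an unadjusted p and that fold change, against 1.91% of all genes. Both called 2 over the 8, against 2.73 and 2.48%, and edgeR called 4 without DMM replicate 4, against 6.71%. The same shares stand against the counts of the next 2 lists. The collecting duct list (8 genes, Aqp2 highest) summed to 265, 252, 429.8, 216 and 236 CPM in PBS replicates 1 to 5 and 307, 364, 469, 277 and 439 CPM in DMM replicates 1 to 5. Over the 10 edgeR called 0, with 1 at an unadjusted p and that fold change, and DESeq2 1, against 0.0389%, and over the 8 they called 2 and 3, edgeR 5 without DMM replicate 4. In both lists PBS replicate 3 was the highest of its group. DMM replicate 4, with the highest mitochondrial mRNA share, was below PBS replicates 1 to 4 in the loop of Henle list and within the PBS range in the collecting duct list. The distal convoluted tubule list (3 genes, Slc12a3 highest) summed to 294, 245, 393, 169.9 and 179 CPM in PBS replicates 1 to 5 and 275, 400.3, 479, 304 and 411 CPM in DMM replicates 1 to 5, with 1 of 2 tested higher over the 8.

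The lists of macrophage, T cell and fibroblast markers had negative medians. Macrophage markers (7 genes, Lyz2 highest) summed to 2139, 2185, 1696, 1899 and 2309 CPM in PBS replicates 1 to 5 and 2003, 1375, 1103, 701 and 1112 CPM in DMM replicates 1 to 5, and 2 fell over the 8, against 3.56% of all genes tested. T cell markers (7 genes, Cd4 highest) summed to 54.3, 56.0, 53.0, 46.9 and 79.2 CPM in PBS replicates 1 to 5 and 50.3, 42.6, 17.7, 21.6 and 22.8 CPM in DMM replicates 1 to 5, and 1 fell over the 8. Fibroblast markers (7 genes, Col3a1 highest) summed to 6548, 9657, 5181, 14212 and 9055 CPM in PBS replicates 1 to 5 and 11102, 5299.7, 3707, 7326 and 4225 CPM in DMM replicates 1 to 5, and 1 fell over the 8. Their medians over the 10 and the 8 libraries were -0.72 and -0.97 for macrophages, -0.91 and -1.19 for T cells and -0.43 and -0.63 for fibroblasts. Over the 10, both tools called 0, and 5 macrophage and 5 T cell markers were lower at an unadjusted p and that fold change, against 4.11% of all genes. Over the 8 DESeq2 called 6 macrophage, 4 T cell and 3 fibroblast markers lower, against 3.01%, and without DMM replicate 4 edgeR called 6, 3 and 3, against 7.61%. Red blood cell markers (5 genes, Hbb-bs highest) summed to 136, 228, 230.1, 157 and 152 CPM in PBS replicates 1 to 5 and 288, 216, 593, 788 and 276 CPM in DMM replicates 1 to 5. edgeR called 0, and all 5 were higher at an unadjusted p and that fold change, against 1.91% of all genes over the 10. DESeq2 called 1 over the 10, against 0.0389%, and 5 over the 8, against 2.48%, and edgeR called 5 when DMM replicate 4 is taken from the 8, against 6.71%. edgeR and DESeq2 called 0 markers of podocytes (4 genes, Podxl highest, median 0.06 over the 10 and -0.07 over the 8), endothelium (6 genes, Pecam1 highest, 0.12 and 0.13), B cells (4 genes, Cd79b highest, -0.24 and -0.36) and tubular injury (5 genes, Havcr1 highest, 0.15 and -0.00473) in either set, with 0 of each at an unadjusted p and that fold change. Without DMM replicate 4 some of these medians turned. Taken from the 10, its absence gave 0.0251 for B cells and -0.00821 for podocytes. Taken from the 8, it gave -0.00736 for endothelium and 0.0271 for tubular injury. 1 injury marker, Vcam1, named after its values were seen, was lower when DMM replicate 4 is taken from the 8, against 7.61% of all genes tested. No marker of any list was at 0 in all libraries, and the part of these cell types in the mitochondrial levels was not tested.

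The sum of RNAs without a poly(A) tail or kept in the nucleus was also high in DMM replicate 4. Of 9 listed, Rmrp, Rpph1, Rny1, Rny3 and Snord118 were at 0 in all libraries, and the others summed to 974, 681, 703, 759.6 and 771 CPM in PBS replicates 1 to 5 and 771, 868, 892, 2101 and 1191 CPM in DMM replicates 1 to 5. Malat1, a long RNA kept in the nucleus, had 687, 501, 433, 542 and 582 CPM in PBS replicates 1 to 5 and 518, 567, 505, 2052 and 732 CPM in DMM replicates 1 to 5. Neat1, the RNA that holds nuclear paraspeckles together, had 285, 179, 269.6, 217 and 187 CPM in PBS replicates 1 to 5 and 253, 300.1, 386, 45.7 and 458 CPM in DMM replicates 1 to 5. DMM replicate 4 was the highest library for Malat1 and the lowest for Neat1; edgeR and DESeq2 called 0 of the 3 tested in either set, and 0 passed an unadjusted p with that fold change. When DMM replicate 4 is taken from the 8, Neat1 rose, with a log2 fold change of 0.81 (adjusted p = 0.00990). Of all genes tested 6.71% were called higher there. With DMM replicate 4 included, a correction for GC content and length turned Neat1 to -0.26 over the 10 and over the 8. Nuclear rRNA genes took 1178, 1152, 148, 851 and 850.0 CPM in PBS replicates 1 to 5 and 326, 262, 425, 1875 and 784 CPM in DMM replicates 1 to 5 before TMM scaling, highest in DMM replicate 4 and lowest in PBS replicate 3. RNA integrity of the samples is not given in the sources used here, and the part of RNA quality in the mitochondrial values was not tested. Of 8 housekeeping genes edgeR called 0 over the 10 libraries, with 1 lower at an unadjusted p and that fold change, against 4.11% of all genes, and by DESeq2, against 0.107%. 1 fell over the 8, against 3.56%: B2m, which also serves antigen presentation, with a log2 fold change of -1.01 across all 10 libraries (SE 0.24, adjusted p = 0.378) and -1.27 over the 8 (SE 0.19, adjusted p = 0.00683); the medians of the list were -0.07 and -0.04.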

How the data were processed

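Raw read counts per gene, as deposited by the authors, were used for 5 PBS and 5 DMM kidneys; the methods call the replicates independent, so each is taken as a separate mouse. The deposited FPKM values were not used. Per the file headers the comparison columns hold a mean signal for each group, the authors' counts divided by size factors, beside a fold change and p-values; the means served only to find which libraries enter them, and the fold changes and p-values were not used. 0 per-sample count columns were left out. The authors aligned the reads with HISAT2 2.0.5 to mm10; the counting tool, the annotation release, the strandedness and the treatment of reads with several matches are not given in the sources used here. All 37 gene positions equal those of GENCODE M21.

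Counts were tested in R 4.3.3 with edgeR 4.0.16 (filterByExpr, TMM, quasi-likelihood F test), with Benjamini-Hochberg adjustment over all genes tested. Alternatives used DESeq2 1.42.0 and limma 3.58.1, and the code was tested on simulated data. The GC content and length correction was made on log2 CPM and tested with limma. A prior count of 2 was used in log2 CPM for that correction and for comparing same-numbered libraries, and not in edgeR's fold changes. Total counts were 15722527 to 19475833 per library. The reads carry no molecular identifiers, so intervals cover counting error only. Named genes were all mitochondrial mRNAs and rRNAs, the tested tRNAs, the 3 other tRNAs with most counts and those at 0. In each nuclear list 1 to 3 genes of the 3 of smallest unadjusted p were named, and in each marker list the most abundant gene. Also named were chromosome 1 copies in the sequence comparison and the listed RNAs without a poly(A) tail or kept in the nucleus that were at 0. Lrpprc, Gatb and Vcam1 fall outside these rules and were named after their values were seen. The members and lists were chosen with earlier results of these data known. Alternatives were other scalings, filters, tools and thresholds, a GC content and length correction, a replicate block, and leaving out each library.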

Additional observations from a re-analysis of the deposited data

Results flagged for a closer look

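A value is listed here when 1 library lay far from the others of its group of 5: its gap to the nearest of them, divided by the range of the group, was above Dixon's 95% critical value for 5 samples. This held in 36 of 96 groups; chance gives about 1 in 20 groups, and the groups are not independent, since they come from the same 10 libraries. 16 of the 36 are high values of DMM replicate 4. It had 1447 CPM of mt-Rnr1 where the other DMM libraries had 172 to 266, 3159 of mt-Rnr2 (299 to 492 in the others), 16017 of mt-Nd5 (2766 to 5854), 3349.9 of mt-Nd6 (542 to 1232), 84.1 of mt-Nd3 and 27.8 of mt-Nd4l (8.83 to 13.9). Among the tRNAs it had 53.3 CPM of mt-Tc, 10.8 of mt-Tn, 10.3 of mt-Tl1, 10.3 of mt-Tr, 10.3 of mt-Ts2 and 5.80 of mt-Tw. The rRNAs took 0.392% of its counts, with 7.53 rRNA and 0.500 tRNA counts per 100 mRNA counts, and it had 96.6 mt-Nd5 counts per 100 mt-Co1 counts where the other DMM libraries had 29.4 to 33.8.

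In 18 groups PBS replicate 3 was the high library. It had 14724 CPM of mt-Co1, 5997 of mt-Cytb, 4467 of mt-Nd5, 3724 of mt-Nd1, 3005 of mt-Nd4, 2587 of mt-Nd2, 969 of mt-Nd6, 130.4 of mt-Atp6 and 26.6 of mt-Nd3. Its tRNA levels were 46.8 CPM for mt-Tp, 24.0 for mt-Te, 2.75 for mt-Th and 1.52 for mt-Tl1. The mRNAs took 3.58% of its counts, where the other PBS libraries had 1.90 to 2.25%, and the tRNAs took 0.0103%. Summed levels were 290.3 CPM for the nuclear copies, 11563 CPM for the proximal tubule markers (1743 to 4568 in the others) and 429.8 CPM for the collecting duct markers (216 to 265). PBS replicate 2 was low in mt-Nd6 counts per 100 mt-Nd5 counts, 18.5 against 20.8 to 21.7 in the other PBS libraries, and PBS replicate 5 was high in the T cell markers, 79.2 CPM against 46.9 to 56.0.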

How the results depend on the processing

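Over the 10 libraries edgeR called 0 genes higher and 0 lower, and 0 mitochondrial mRNAs and tRNAs. DESeq2 gave 12 higher, 33 lower, 1 mRNA and 2 tRNAs, and an unadjusted p below 0.05 at a fold change above 1.5 gave 315, 678, 9 mRNAs, 1 rRNA and 11 tRNAs. With the 8 libraries the counts were 452, 590, 12 mRNAs and 9 tRNAs. Leaving out 1 of the 10 gave 0 to 50 higher, 0 to 436 lower, 0 to 3 mRNAs and 0 to 4 tRNAs, each highest without DMM replicate 1, and took the log2 fold change of mt-Rnr1 from -0.15 without DMM replicate 4 to 1.16 without DMM replicate 1. Over the 8 libraries DESeq2 gave 749 higher and 910 lower, library size alone 276 higher and 700 lower (28.3% of calls higher, against 43.4%), with a median over all genes of -0.09 in place of 0.02, and an unadjusted p 1067 higher, 1198 lower and 1 rRNA. The replicate numbers did not pair the libraries, and a block on numbers 2, 4 and 5, with 6 libraries, gave 0 higher, 0 lower, 0 mRNAs and 0 tRNAs. Leaving out 1 of the 8 gave 131 (PBS replicate 5) to 1129 (DMM replicate 4) higher, 276 to 1281 lower without the same libraries, 7 (PBS replicates 1, 2 or 4) to 12 mRNAs, 1 (PBS replicate 5) to 12 (DMM replicate 4) tRNAs, and a median mRNA log2 fold change of 1.19 (DMM replicate 4) to 1.60 (DMM replicate 2). A correction for GC content and length, tested with limma, gave 4 tRNAs and an mRNA median of 1.14 over the 8. It turned mt-Th to -0.48 over the 10 and -0.22 over the 8 and Neat1 to -0.26 in both. A block on the replicate number over the 10 gave 0.36 for mt-Rnr1 and 0.82 for mt-Rnr2. For all these changes the cause was not tested. Over single mitochondrial genes and alternatives, direction and side of the threshold were the same in 460 comparisons over the 10 and 326 over the 8; 31 and 6 passed it anew, and 82 over the 8 no longer did. With 5 libraries per group and tRNA counts this low, a difference that missed the threshold is not shown to be absent.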
